A study of Mus musculus with 8 samples.

Results

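The genes described here are Tob1, Tob2, Btg1, Btg2 and Btg3, which encode the TOB/BTG antiproliferative proteins, and Foxo1, Foxo3 and Foxo4, which encode FoxO transcription factors. These 8 genes were taken by symbol from the 53697 genes of the count table, and all 8 were among the 18322 genes tested. They were chosen with results of these data known, both for Dll1+ against Dll1- cells and between the reporters, so their own values in those comparisons are given as a description without p-values, and nothing is read from how many of them were called. The table counts RNA reads in tumor cells of MMTV-PyMT mice, a luminal-like breast cancer model in which the MMTV promoter drives the polyoma middle T oncogene in mammary epithelium. Mice 1 and 2 carried a Dll1 GFP knock-in allele (PyMT-Dll1GFP, here GFP mice), and mice 3 and 4 carried a BAC-based Dll1 mCherry transgene (PyMT-Dll1mCh, here mCh mice). All were on the C57BL/6 background, and their ages are not given in the sources used here. Digested tumors were depleted of CD45, CD31 and Ter119 positive cells and sorted by the reporter, so that each of the 4 mice gave 1 Dll1+ and 1 Dll1- library, 8 in all.

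TOB and BTG proteins are small adaptors. They bind the deadenylase subunits of the CCR4-NOT complex, which shortens the poly(A) tail of mRNAs, and cells forced to make them tend to stop before S phase. FoxO proteins bind forkhead sites in the nucleus and switch on genes for cell cycle arrest, death and stress resistance. Growth factor signaling through PI3K and AKT phosphorylates them, and 14-3-3 proteins then hold them in the cytoplasm, so that FoxO activity need not follow FoxO mRNA.

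Total counts ran from 27301396 to 123907626 per library, and a member had between 565 and 113561 counts in a library, with Btg3 at the low and Btg2 at the high end. Dll1, on which the cells were sorted, was at 7.61 and 13.7 CPM (counts scaled to library size with TMM normalization) in the Dll1- libraries of the GFP mice and at 87.5 and 138 in their Dll1+ libraries. In the mCh mice it was at 34.7 and 50.3 CPM in Dll1- and at 203 and 250.2 CPM in Dll1+ cells. Epcam, an epithelial surface protein, was at 899 to 1240 CPM in all 8 libraries. The depleted lineages were low but not at 0, with Ptprc (CD45) at 2.88 to 12.7 CPM and Pecam1 (CD31) at 13.7 to 98.2 CPM. The Dll1- libraries of the mCh mice stood apart in stromal genes. The 9 fibroblast and pericyte markers summed to 1007 to 1237 CPM in the 4 GFP libraries, to 7848 and 21909 in Dll1- and to 3052 and 3304 in Dll1+ cells of the mCh mice. In such bulk libraries, fewer cells of a type and less RNA per cell cannot be told apart.

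Tob1 showed the largest and most even difference of the 8 genes. Its level in the Dll1- and Dll1+ library was 299.6 and 599 CPM in mouse 1 and 404 and 798 CPM in mouse 2. In mouse 3 it was 132 and 252 CPM, and in mouse 4 it was 169.8 and 329 CPM. Tob1 was thus higher in Dll1+ cells in 4 of 4 mice. Across the lines the fractions overlapped, as Dll1+ cells of mouse 4 (329 CPM) lay between Dll1- cells of mouse 1 (299.6 CPM) and of mouse 2 (404 CPM). The log2 difference within a mouse was 1.0, 0.98, 0.94 and 0.95 in mice 1 to 4, a mean of 0.97 ± 0.03 (SD, n = 4 mice). The fit over all 4 mice gave a log2 fold change of 0.97 (SE 0.06), or 1.96-fold.

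Tob2, the paralog of Tob1, followed the same order at a lower level. It was at 188 CPM in Dll1- and 273 CPM in Dll1+ cells of mouse 1 and at 197 and 275 CPM in mouse 2. In mouse 3 the values were 124 and 191 CPM, and in mouse 4 they were 119 and 181 CPM. Every Dll1+ library exceeded the Dll1- library of the same mouse, and the 2 mice of a line lay close together. The within-mouse differences were 0.54, 0.48, 0.63 and 0.61 on the log2 scale, with a fitted log2 fold change of 0.56 (SE 0.06), or 1.48-fold.

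**Figure D1:**
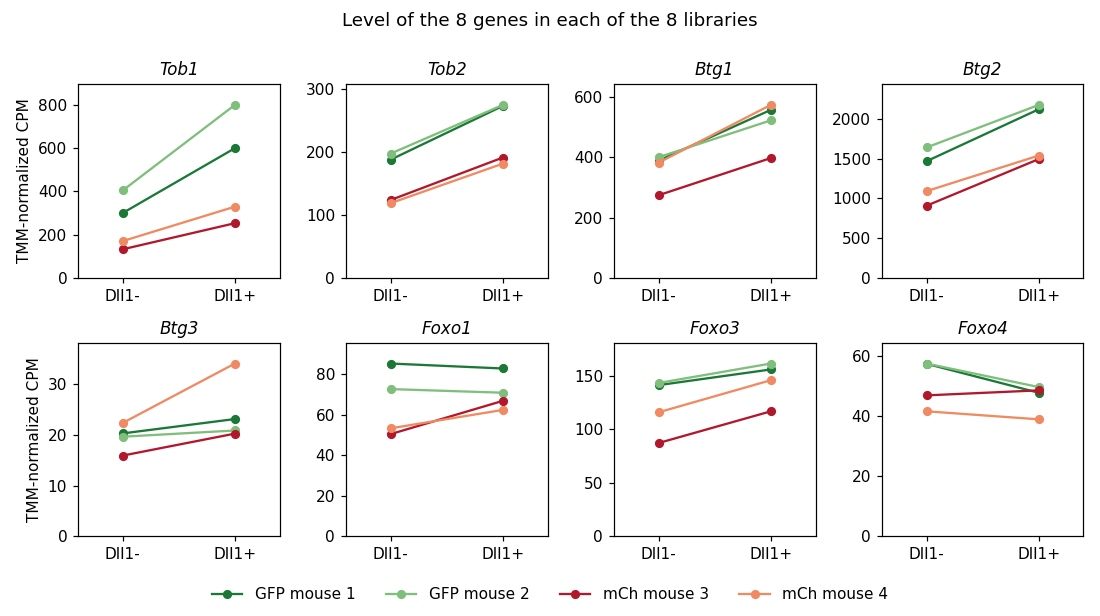
Each panel shows 1 of the 8 genes, with its TMM-normalized CPM on the vertical axis (starting at 0) and the Dll1- and Dll1+ library of a mouse joined by a line, green for the 2 GFP and red for the 2 mCh mice. The lines of Tob1, Tob2, Btg1, Btg2, Btg3 and Foxo3 go up in all 4 mice, those of Foxo1 in 2 and that of Foxo4 in 1.

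Btg2, a gene known to respond quickly to p53 and growth stimuli, had the highest level of the 8 genes, also per length (TPM). It was at 1470.1 CPM in Dll1- and 2124 CPM in Dll1+ cells of mouse 1 and at 1643 and 2179 CPM in mouse 2. In mouse 3 it was at 909 and 1496 CPM, and in mouse 4 at 1093 and 1541 CPM. The Dll1+ library was the higher of the pair in 4 of 4 mice, and the largest gap was in mouse 3. The log2 differences were 0.53, 0.41, 0.72 and 0.50, and the fitted log2 fold change was 0.54 (SE 0.09), or 1.45-fold.

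Btg1, first found at a translocation in B cell leukemia, differed less between the reporter lines. It was at 389 CPM in Dll1- and 557 CPM in Dll1+ cells of mouse 1, and at 401 and 523 CPM in mouse 2. Mouse 3 had 274 and 398 CPM, and mouse 4 had 382 and 574 CPM. Mouse 3 was the lowest of the 4 mice in both fractions, and mouse 4 lay with the GFP mice. The log2 differences were 0.52, 0.38, 0.54 and 0.59, with a fitted log2 fold change of 0.51 (SE 0.07), or 1.42-fold.

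Btg3, also called ANA, had the lowest mean CPM of the 8 genes. Its CPM in Dll1- and Dll1+ cells were 20.2 and 23.1 in mouse 1 and 19.6 and 20.8 in mouse 2. They were 15.9 and 20.2 in mouse 3 and 22.3 and 33.9 in mouse 4. The difference had the same sign in 4 of 4 mice but ran from 0.09 in mouse 2 to 0.61 in mouse 4 on the log2 scale, a mean of 0.31 ± 0.23 (SD, n = 4 mice). The fitted log2 fold change of Btg3 was 0.31 (SE 0.10).

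The stretches before the transcription start of Tob1, Btg1 and Btg2 are shown because these genes had the highest levels and were higher in Dll1+ cells in each mouse. They are the 250 bases before the RefSeq start on the gene's own strand (GRCm38.p6), and capitals mark exact matches, on either strand, to 8 motifs. These were the forkhead letters TGTTTAC, the cyclic AMP response element TGACGTCA, the AP-1 letters TGANTCA, the core GTGGGAA that is bound by RBPJ (the Notch transcription factor), the NF-kB motif, the CArG box, CCAAT and the TATA box TATAAA.
Tob1, chr11:94211204-94211453, plus strand: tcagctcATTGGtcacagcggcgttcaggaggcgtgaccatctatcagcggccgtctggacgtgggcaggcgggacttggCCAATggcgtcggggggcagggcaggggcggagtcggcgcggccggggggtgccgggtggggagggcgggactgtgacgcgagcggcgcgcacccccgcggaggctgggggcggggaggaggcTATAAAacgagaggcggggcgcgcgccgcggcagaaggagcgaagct
Btg1, chr10:96616751-96617000, plus strand: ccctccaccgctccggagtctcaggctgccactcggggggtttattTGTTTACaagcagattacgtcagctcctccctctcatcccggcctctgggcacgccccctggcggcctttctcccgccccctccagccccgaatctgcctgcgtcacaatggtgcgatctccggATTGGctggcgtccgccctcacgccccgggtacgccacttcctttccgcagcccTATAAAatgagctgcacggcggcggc
Btg2, chr1:134079156-134079405, minus strand: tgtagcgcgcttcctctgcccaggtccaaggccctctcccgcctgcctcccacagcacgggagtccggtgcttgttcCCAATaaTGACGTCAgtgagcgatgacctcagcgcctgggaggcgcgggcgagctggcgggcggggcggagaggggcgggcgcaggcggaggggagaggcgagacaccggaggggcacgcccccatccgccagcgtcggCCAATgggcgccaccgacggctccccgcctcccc
The forkhead letters occurred in the Btg1 window, at -204 from the start, and in 0 of the other member promoters. They were present in 3.65% of the 32851 RefSeq promoters taken from 250 bases before to 50 after the start. The Btg2 window held the cyclic AMP response element at -166, which 1.79% of promoters hold. CCAAT stood in all 3 windows (37.4% of promoters) and TATAAA in those of Tob1 and Btg1 (13.6%). The AP-1, RBPJ, NF-kB and CArG motifs, present in 7.81%, 6.38%, 0.411% and 1.63% of promoters, matched in 0 of the 8 member promoters, which cover 7 of the 8 genes. A match is a run of letters and not a measured site.

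Foxo3 was the FoxO gene with the highest level and the only FoxO member above its Dll1- partner in 4 of 4 mice. Its CPM in Dll1- and Dll1+ cells were 141 and 156 in mouse 1 and 143 and 161 in mouse 2. They were 87.2 and 117 in mouse 3 and 116 and 146 in mouse 4. The gap was wider in the mCh mice, at 0.42 and 0.33 on the log2 scale, than in the GFP mice, at 0.14 and 0.17. The fitted log2 fold change over the 4 mice was 0.27 (SE 0.07).

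Foxo1, a main FoxO of insulin-responsive tissues, differed in sign between the lines. It was at 85.1 CPM in Dll1- and 82.6 CPM in Dll1+ cells of mouse 1, and at 72.5 and 70.7 CPM in mouse 2. In mouse 3 it was at 50.4 and 66.7 CPM, and in mouse 4 at 53.2 and 62.3 CPM. The log2 differences were -0.04 and -0.04 in the GFP mice and 0.41 and 0.23 in the mCh mice, so that the fitted log2 fold change over all 4 mice, 0.14 (SE 0.09), was the mean of unlike values.

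Foxo4, on the X chromosome, was the only member whose mean difference was below 0. Its CPM in Dll1- and Dll1+ cells were 57.3 and 47.7 in mouse 1, 57.4 and 49.6 in mouse 2, 46.8 and 48.5 in mouse 3 and 41.5 and 38.9 in mouse 4. The Dll1+ library was lower in 3 of 4 mice and higher in mouse 3. The log2 differences were -0.26, -0.21, 0.05 and -0.10, with a fitted log2 fold change of -0.13 (SE 0.07).

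**Figure D2:**
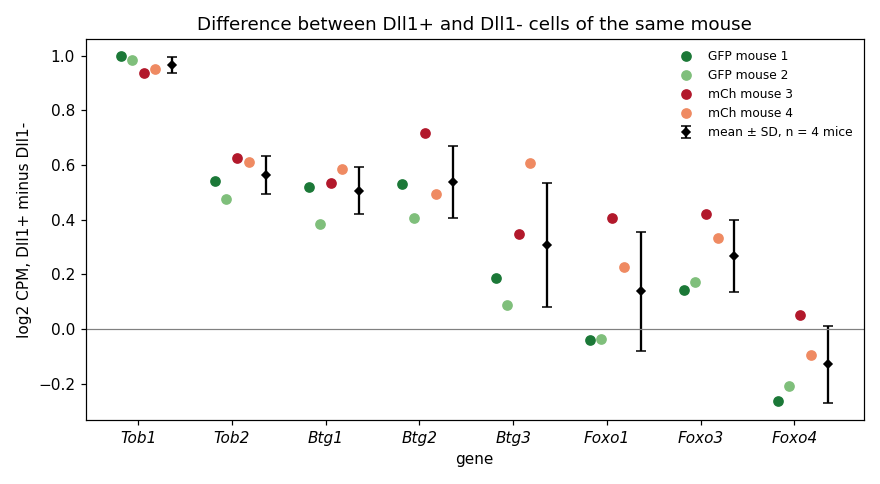
For each of the 8 genes the points give the log2 CPM of the Dll1+ minus that of the Dll1- library in each mouse, green for GFP and red for mCh mice, and the black diamond gives the mean ± SD over the 4 mice. Tob1 has the highest mean (0.97) and the smallest SD (0.03), and only Foxo4 has a mean below 0 (-0.13).

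In the edgeR fit with the mouse as a block, 4 of the 8 members (Tob1, Tob2, Btg1 and Btg2) were called higher in Dll1+ cells at an adjusted p under 0.05 (Benjamini-Hochberg over all tested genes), and 0 were called lower. Of the 18322 tested genes, 6.98% were called higher and 7.04% lower. Since the members were chosen with this comparison in view, nothing is read from that contrast of shares. The median log2 fold change of the 8 members was 0.41, beside -0.000684 over all tested genes. In 6 of the 8 the Dll1+ library was the higher of the pair in every mouse, as in 21.4% of tested genes, and in 0 of the 8 it was the lower in every mouse, as in 19.9%. All 8 had some Dll1+ library below some Dll1- library, while in 2.74% of tested genes every Dll1+ library was above every Dll1- library. Leaving out mouse 1 or mouse 3 left 2 calls, Tob1 and Tob2, leaving out mouse 2 left 3 and leaving out mouse 4 left 4.

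With an effect for each reporter in a single fit, 3 members (Tob1, Tob2 and Btg1) were called higher in the GFP mice, where 4.29% of tested genes were called higher and 4.84% lower, and 6 in the mCh mice (the same 3 with Btg2, Btg3 and Foxo3), where 5.51% were called higher and 6.25% lower. The log2 fold changes in the GFP and the mCh mice were 0.99 and 0.94 for Tob1, 0.51 and 0.62 for Tob2, 0.45 and 0.56 for Btg1 and 0.47 and 0.61 for Btg2. For Btg3 they were 0.14 and 0.47, for Foxo3 0.16 and 0.38, for Foxo1 -0.04 and 0.32 and for Foxo4 -0.24 and -0.02. The fold changes of the 4 genes with the highest levels therefore lay near each other in the lines. For the other 4 the log2 fold change, and not the level, was greater in the mCh mice by 0.22 to 0.36, with that of Foxo4 still below 0. The difference itself was called by edgeR for 0 of the 8 members, with 1 at an unadjusted p under 0.05 and 0 called by DESeq2, and for 0.0710% of tested genes. Without mouse 1 or mouse 2, 0 members were called in the GFP mice, and without any single mouse 2 (Tob1 and Tob2) were called in the mCh mice, where 0 were called with that line fitted alone.

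Markers of other cells also differed between the libraries. In the GFP mice the fibroblast and pericyte sum was 1096 CPM in Dll1- and 1007 in Dll1+ cells of mouse 1 and 1237 and 1153 in mouse 2, and 0 of the 9 markers were called either way. In the mCh mice the sum went from 7848 to 3052 CPM in mouse 3 and from 21909 to 3304 in mouse 4, and 6 of the 9 markers fell. The 7 immune markers tested summed to 52.8 to 72.0 CPM in the GFP libraries, and in the mCh mice to 287 and 316 in Dll1- and 129 and 144 in Dll1+ cells. The endothelial markers behaved likewise, with 36.6 to 41.1 CPM in the GFP libraries, 120 and 278 in Dll1- and 71.5 and 69.0 in Dll1+ cells of the mCh mice. The part of these cells in the unlike gaps of Btg3, Foxo1, Foxo3 and Foxo4 in the GFP and mCh mice was not tested. Basal cell markers also moved with Dll1, and Krt5, Oxtr and Trp63 rose by 2.77, 0.96 and 1.08 log2 units (adjusted p = 0.0073, 0.0217 and 0.0461), with the 5 tested markers summing to 107 to 386 CPM in Dll1- and 201 to 1274 in Dll1+ cells. The erythroid marker Hba-a1 fell by 1.21 log2 units (adjusted p = 0.0134). Of the 5 epithelial markers, edgeR called 0 over the 4 mice, while DESeq2 called 3 higher and 1 lower. In the GFP mice edgeR called Krt19 lower (log2 fold change -0.72, adjusted p = 0.0195, picked out after seeing its value).

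**Figure D3:**
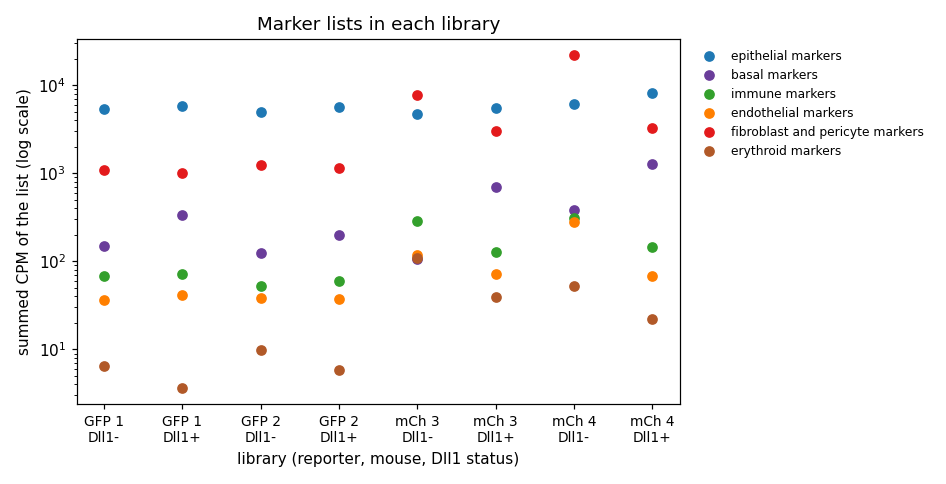
Summed TMM-normalized CPM of each marker list (log scale) in the 8 libraries, which are given by reporter, mouse number and Dll1 status. The fibroblast and pericyte sum is between 1007 and 1237 in the GFP libraries and reaches 21909 in the Dll1- library of mouse 4, while the epithelial sum stays between 4742 and 8146.

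The mean level of most members was lower in the mCh than in the GFP mice, which is given as a description. For Tob1 the order of the 4 groups was Dll1+ cells of the GFP mice (mean 698 CPM), Dll1- cells of the GFP mice (352), Dll1+ cells of the mCh mice (290.4) and Dll1- cells of the mCh mice (151). The middle groups overlapped between libraries and the outer steps did not. Each group held 2 libraries, and the share of all tested genes with such steps was not computed, so nothing is read from them. Tob2, Btg2 and Foxo3 had the same order with the same overlap, with means of 274, 193, 186 and 121 CPM for Tob2, of 2152, 1557, 1519 and 1001 CPM for Btg2, and of 159, 142, 131 and 102 CPM for Foxo3. Thus Dll1+ cells of the mCh mice had about the level that Dll1- cells of the GFP mice had. For Foxo3 the step within the mCh mice was narrow, with 116 CPM in Dll1- cells of mouse 4 and 117 in Dll1+ cells of mouse 3.

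In Btg1 both Dll1+ groups (means of 540.1 CPM in GFP and 486 in mCh mice) overlapped each other, and Dll1+ cells of the mCh mice overlapped Dll1- cells of the GFP mice (395), with Dll1- cells of the mCh mice lowest (328). Btg3 put Dll1+ cells of the mCh mice first (27.1 CPM), but they overlapped Dll1+ cells of the GFP mice (21.9), and the Dll1- groups overlapped too (19.9 and 19.1). Foxo1 was highest in the GFP mice, in Dll1- (78.8 CPM) and Dll1+ cells (76.7) that overlapped, then in Dll1+ (64.5) and Dll1- cells (51.8) of the mCh mice, which did not. Foxo4 was highest in Dll1- cells of the GFP mice (57.3 CPM), followed by their Dll1+ cells (48.6) and the mCh groups (44.2 and 43.7), which overlapped.

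The ratio of the GFP to the mCh mean for Tob1 was 2.33 in Dll1- and 2.41 in Dll1+ cells, the largest of the 8 genes. It was 1.59 and 1.47 for Tob2, 1.56 and 1.42 for Btg2, 1.52 and 1.19 for Foxo1 and 1.4 and 1.21 for Foxo3. It was nearer to 1 for Foxo4 (1.30 and 1.11), Btg1 (1.20 and 1.11) and Btg3 (1.04 and 0.81). In Dll1- cells 7 of 8 members had both mCh libraries below both GFP libraries, as did 35.2% of tested genes, and in Dll1+ cells 5 of 8 did, as did 33.1%.

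With 2 mice against 2, the log2 fold change of mCh over GFP mice in Dll1- cells was -1.22 (SE 0.24) for Tob1, -0.67 (SE 0.09) for Tob2, -0.64 (SE 0.14) for Btg2 and -0.61 (SE 0.12) for Foxo1, and these 4 members were called lower. In Dll1+ cells it was -1.27 (SE 0.24) for Tob1, -0.56 (SE 0.09) for Tob2 and -0.50 (SE 0.14) for Btg2, and these 3 were called lower. The share of all tested genes called lower was 17.9% in Dll1- and 15.4% in Dll1+ cells (18.7% and 15.2% were called higher), so that calls were common in this comparison, which also shares its libraries with the one within mice. The members were chosen with it in view, and nothing is read from their calls. The median over the 8 members was -0.55 in Dll1- and -0.26 in Dll1+ cells, beside 0.01 and 0.07 over all tested genes. Without mouse 1 or mouse 2, 0 members were called in either fraction, and without mouse 3 or mouse 4 there were 6 in Dll1- and 5 in Dll1+ cells. The reporter, the line and the animals cannot be told apart, and the higher stromal sums of the mCh libraries go with the same contrast.

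**Figure D4:**
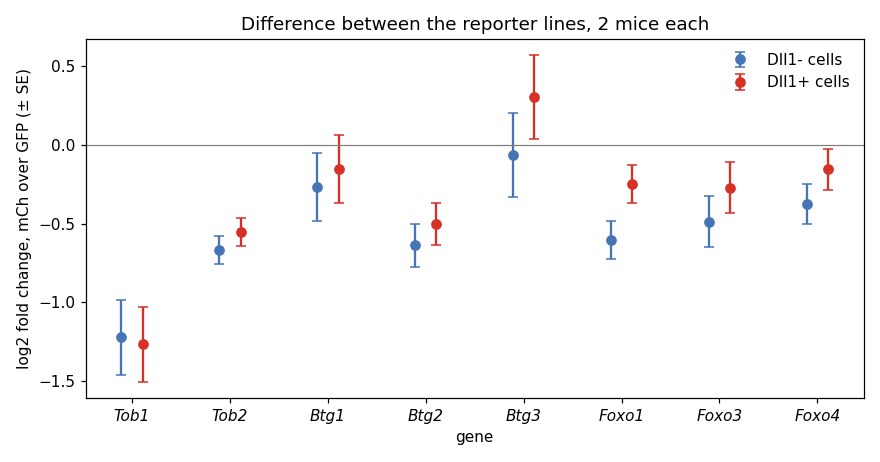
Log2 fold change of mCh over GFP mice (± SE from the fit) for each of the 8 genes, in Dll1- cells (blue) and Dll1+ cells (red), with 2 mice per line. All 8 values are below 0 in Dll1- cells and 7 of 8 in Dll1+ cells, with Tob1 lowest at -1.22 and -1.27.

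Levels can be set between genes only per length, so TPM values, which divide by length before scaling, were computed from the counts and merged exon lengths. Btg2 had a mean of 1530 ± 560.2 TPM over the 8 libraries (SD), followed by Tob1 with 449 ± 304.5 and Btg1 with 221 ± 61.9. Tob2 was at 78.4 ± 30.1 TPM, Foxo3 at 47.2 ± 12.6, Foxo4 at 37.2 ± 8.37, Foxo1 at 21.0 ± 5.83 and Btg3 at 14.4 ± 2.99. Over the 8 libraries the ranges of neighbours in this order overlapped, apart from Btg1 (125 to 316 TPM) and Tob2 (44.6 to 122). Within each library, however, Btg2 was above Tob1, Tob1 above Btg1 and Tob2 above Foxo3. Foxo3 (27.7 to 61.5 TPM) and Foxo4 (25.4 to 48.3) lay close together, as did Foxo1 (14 to 28.5) and Btg3 (9.51 to 19.2). In TPM Tob1 thus exceeded Btg1 in each library, while in CPM Btg1 was the higher on average. The merged length is well above that of the transcript used for Btg3 (4014 against 1414 bases) and Tob2 (6664 against 4151). A shorter length gives a higher TPM, so the places of Btg3 and Tob2, and the gap between Btg1 and Tob2, depend on this choice.

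The relatives outside the 8 were near the limit of detection. Btg4, best known from oocytes, had 2 counts in 1 library and 0 in the other 7, and was not tested. Foxo6, known from brain, was at 0.179 to 1.18 CPM and did not pass for Dll1+ against Dll1- cells over 4 mice (log2 fold change -0.09, adjusted p = 0.902). In Dll1+ cells Foxo6 was at 0.314 and 0.179 CPM in GFP and at 1.18 and 0.702 CPM in mCh mice and rose in the latter (log2 fold change 1.96, adjusted p = 0.0263), which rests on 8 to 77 counts in a library.

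The members lie on different chromosomes apart from Btg1 and Foxo3. In GRCm38 (GENCODE M21) Tob1 is at chr11:94211454-94215495, Tob2 at chr15:81848272-81858796, Btg1 at chr10:96617006-96622809, Btg2 at chr1:134075170-134079120 and Btg3 at chr16:78332637-78377192. Foxo1 is at chr3:52268336-52353221, Foxo3 at chr10:42181841-42276755 and Foxo4 at chrX:101254528-101260873. The TOB and BTG genes are compact, with 2 exons each in Tob1, Tob2, Btg1 and Btg2 and 5 in Btg3, and code for 362, 345, 171, 158 and 252 amino acids in that order, so the TOB proteins are longer than the BTG proteins. The FoxO genes have 3 or 4 exons and code for 652 (Foxo1), 672 (Foxo3) and 505 (Foxo4) amino acids. Exons of Tob2, Btg3 and Foxo1 overlap a gene on the other strand (Gm49476, Cxadr and Gm20402). The library kit keeps the strand, but the strand setting of the mapping is not given in the sources used here, so the counts of these 3 genes are less certain.

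Short-lived growth response mRNAs often carry ATTTA letters after the stop codon. The 3' untranslated region of the transcript used held 11 of them in Btg1 (4166 bases), 5 in Btg2 (2199), 4 in Tob2 (2457), 4 in Btg3 (439) and 3 in Tob1 (767). Foxo1 held 13 (6240 bases), Foxo3 6 (4490) and Foxo4 1 (1351). At least 1 was present in 58.7% of coding genes, whose median region was 739 bases, and only 2.91% had as many as Foxo1. TGTANATA, the Pumilio letters, occurred in Btg1 (2), Foxo1 (4) and Foxo3 (2) and in 20.5% of genes. Longer regions hold more matches, and no decay was measured.

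Among the 8 members, Tob1, Tob2 and Btg2 had the most alike levels over the 8 libraries. As a description over libraries that share mice and lines, the Pearson correlation of log2 CPM was 0.98 for Tob1 with Btg2, 0.97 for Tob2 with Btg2 and 0.96 for Tob1 with Tob2. Foxo3 went with Btg2 (0.92) and Tob1 (0.91), while Btg3 and Foxo4 went in opposite directions (-0.60). Of 9815 other genes with a symbol and at least 10 CPM on average, the 3 most like Tob1 were Gprasp1, Rnft1 and Flrt3, and those most like Tob2 were Zfp945, Slc25a46 and Wdr72. They were Kctd1, Coq10b and Dhx40 for Btg1, Rnft1, Aftph and Atp6v1b1 for Btg2, and Tprn, Tnfrsf12a and Ndrg1 for Btg3. For Foxo1 they were Ccng2, Chdh and Phf20l1, for Foxo3 Gm26532, Pakap and Ttc3, and for Foxo4 Bmf, Tgfb2 and Copg2. Correlations ran from 0.967 to 0.995 over 8 libraries, and the rank correlations of the same 24 genes from 0.857 to 1. Only 2 of the 24 genes (Ndrg1 and Phf20l1) were listed among the first 3 by rank, but that count depends on ties. Gprasp1 and Flrt3 had a rank correlation of 1 with Tob1, the highest possible, and were still not listed.

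The known partners of the TOB and BTG proteins were followed next. Of 16 genes, those of the CCR4-NOT complex and the poly(A) machinery with Prmt1, an arginine methyltransferase that BTG proteins bind, 1 rose and 2 fell in Dll1+ cells over the 4 mice, and their median log2 fold change was -0.06. Over all tested genes 6.98% rose and 7.04% fell. Cnot6l, a deadenylase of the complex, rose by 0.27 log2 units (SE 0.06, adjusted p = 0.0442). Cnot9, a scaffold subunit, fell by 0.33 (SE 0.07, adjusted p = 0.0314), from 49.0 ± 7.01 to 38.9 ± 3.36 CPM (SD, n = 4 mice), and Cnot11 fell by 0.32 (SE 0.07, adjusted p = 0.0343). Cnot7 and Cnot8, the deadenylase subunits that TOB and BTG proteins bind, had log2 fold changes of 0.14 and 0.10 (adjusted p = 0.36 and 0.264, picked out after seeing their values). Without mouse 1, mouse 2 or mouse 3, 0 of the 16 were called, and without mouse 4 there were 2 lower. Between the lines more of them were called, with 2 higher and 8 lower in Dll1- cells of the mCh mice, where 18.7% of tested genes were higher and 17.9% lower.

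Of 29 regulators of FoxO proteins, 2 rose and 3 fell in Dll1+ cells, with a median log2 fold change of -0.01, close to the 6.98% and 7.04% over all tested genes. Skp2, which marks FOXO1 and the CDK inhibitor p27 for destruction, had the largest change of the 5 called. It went from 13.9 to 5.58 CPM in mouse 1, from 12 to 4.94 in mouse 2, from 18.0 to 9.37 in mouse 3 and from 11.8 to 7.72 in mouse 4. The Dll1+ library was lower in 4 of 4 mice, as in 19.9% of tested genes (log2 fold change -1.03, SE 0.14, adjusted p = 0.0121). Akt1, a kinase that inactivates FoxO proteins, fell by 0.36 log2 units (adjusted p = 0.0201), and Ywhah, which encodes a 14-3-3 protein, fell by 0.26 (adjusted p = 0.0441). Sfn, another 14-3-3 gene, rose by 0.51 (adjusted p = 0.0158), and so did Mdm2 by 0.21 (adjusted p = 0.0489), a p53 ubiquitin ligase named here as the last of the 5 called. Sgk1 and the PI3K genes did not pass. Calls in this list fell to 0 without mouse 1 or mouse 3, to 1 higher and 2 lower without mouse 2, and to 1 higher and 3 lower without mouse 4.

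Of 41 genes known to be induced by FoxO factors, 36 were tested, and 9 rose and 1 fell in Dll1+ cells. Over all tested genes 6.98% rose and 7.04% fell. The median log2 fold change of the 36 was 0.18, beside -0.000684 over all genes. In the GFP mice it was 0.04, with 19 of the 36 above 0, beside -0.00932 over all genes. In the mCh mice it was 0.31, with 32 of the 36 above 0, beside 0.0209. Klf6, a Krüppel-like factor, went from 1296 to 1731 CPM in mouse 1, from 1347 to 1928 in mouse 2, from 590.3 to 865 in mouse 3 and from 1023 to 1536 in mouse 4 (log2 fold change 0.52, SE 0.08, adjusted p = 0.0136). Gadd45b, a stress gene, rose by 0.69 log2 units (SE 0.11, adjusted p = 0.015), from 129.7 ± 12.6 to 210.1 ± 34.6 CPM (SD, n = 4 mice). Bbc3, which encodes the death protein PUMA, rose by 0.40 (adjusted p = 0.0185), and Sesn2, a sestrin, by 0.38 (adjusted p = 0.0259). Each of the 4 was higher in the Dll1+ library of every mouse, as were 21.4% of tested genes.

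Cited2, Txnip, Gabarapl1, Bcl6 and Bcl2l11 were the other 5 targets that rose, by 0.28 to 0.50 log2 units (adjusted p = 0.0296 to 0.0433), and Prdx3, an antioxidant enzyme of mitochondria, fell by 0.28 log2 units (adjusted p = 0.0361), all 6 picked out after seeing their values. Cdkn1b, which encodes p27, and Cdkn1a, which encodes p21, were picked out in the same way. Cdkn1b had a log2 fold change of 0.30 over the 4 mice, where it did not pass (adjusted p = 0.0613), and rose in the mCh mice (0.45, adjusted p = 0.0173). Cdkn1a had 0.62 with a wide spread (SE 0.27, adjusted p = 0.186). In the GFP mice 2 of the 36 rose (Gadd45b and Klf6), beside 4.29% of tested genes, and in the mCh mice 10 did, beside 5.51%. The difference between the lines was, however, called by edgeR for 0 of the 36, with 8 at an unadjusted p under 0.05 and 1 called by DESeq2. Between the lines, 15 targets were lower and 2 higher in Dll1- cells of the mCh mice, and 13 and 3 in Dll1+ cells. Over all tested genes 17.9% were lower and 18.7% higher in Dll1- cells, and 15.4% and 15.2% in Dll1+ cells. Over the 4 mice the 9 higher calls of the targets fell to 0 without mouse 1 or mouse 3, to 1 without mouse 2 and to 7 without mouse 4.

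**Figure D5:**
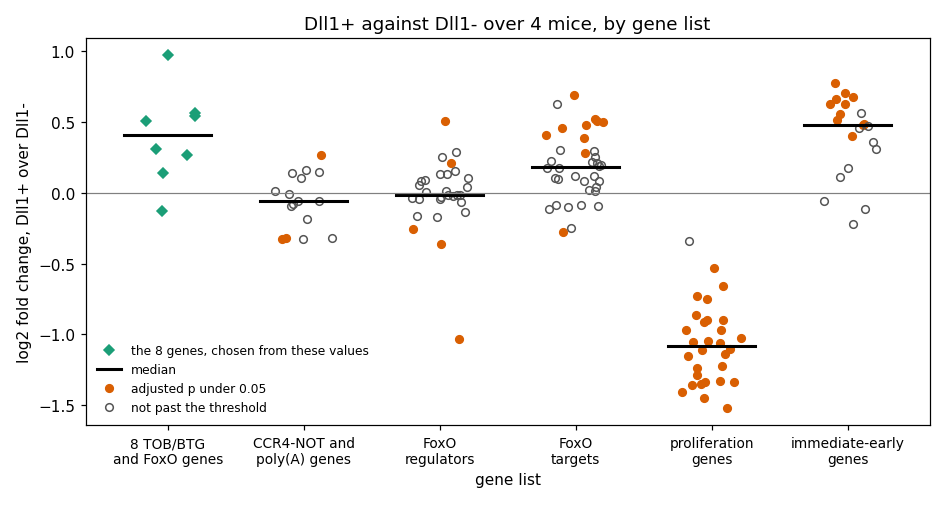
Log2 fold change of Dll1+ over Dll1- cells over the 4 mice for each tested gene of 6 lists. Filled orange points passed an adjusted p of 0.05, open points did not, green diamonds are the 8 genes chosen from these values, and black bars are medians, which run from -1.08 for the proliferation genes to 0.48 for the immediate-early genes and 0.41 for the 8 genes.

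Proliferation genes went the other way. Of 30 tested, 29 fell and 0 rose in Dll1+ cells, beside 7.04% and 6.98% of tested genes, with a median log2 fold change of -1.08. Rrm2, a subunit of ribonucleotide reductase, fell by 1.52 log2 units, from 73.2 ± 22.7 to 25.9 ± 9.36 CPM (SD, n = 4 mice), and Plk1 and Aurka, mitotic kinases, fell by 1.45 and 1.14 (adjusted p = 0.00534 for each). Mybl2, a transcription factor of dividing cells, fell by 1.11 (adjusted p = 0.00534). All 4 were lower in 4 of 4 mice, as were 19.9% of tested genes. Without mouse 1, 2, 3 or 4, there were 21, 23, 19 and 29 lower calls. Between the lines 24 of the 30 were higher in the mCh mice, in Dll1- and again in Dll1+ cells, beside 18.7% and 15.2% of tested genes.

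Immediate-early genes, which are also induced while tissue is digested, were higher in the same fraction as most members, and Btg2 is itself often counted among such genes. Of 21 tested, 11 rose and 0 fell in Dll1+ cells over the 4 mice, beside 6.98% and 7.04% of tested genes, with a median log2 fold change of 0.48. With an effect for each reporter, 8 rose and 1 fell in the GFP mice, beside 4.29% and 4.84%. In the mCh mice 9 rose and 1 fell, beside 5.51% and 6.25%. Ier3, Atf3, Maff and Ier2 rose by 0.77, 0.66, 0.48 and 0.62 log2 units (adjusted p = 0.00645, 0.00879, 0.00914 and 0.0146). Without mouse 1 or mouse 3, 2 of the 21 were called higher, without mouse 2 there were 5 and without mouse 4 there were 10. Their summed CPM went from 25156 in Dll1- to 40653 in Dll1+ cells of mouse 1, from 29430 to 39625 in mouse 2, from 17067 to 25937 in mouse 3 and from 23511 to 30953 in mouse 4. The sum was thus higher in Dll1+ cells in 4 of 4 mice, and its part in the values of Btg2, Btg1, Tob1 and the FoxO targets was not tested. Total counts of the Dll1- and Dll1+ library were 28249579 and 28184563 in mouse 1, 27301396 and 45198980 in mouse 2, 123907626 and 66979980 in mouse 3 and 31183156 and 59160572 in mouse 4. The Dll1+ library was thus the deeper in mice 2 and 4 only, and the part of depth in the members' values was not tested.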

How the data were processed

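RNA was sequenced from sorted tumor cells of 4 mice, 8 libraries. The authors mapped reads with salmon to GENCODE M20 transcripts (GRCm38.p6), used tximport to add up transcripts, and deposited estimated counts for each gene as whole numbers, without normalization. Of 53697 genes, 52806 had a symbol in GENCODE M21, which also gave positions and lengths. Genes with no match by symbol were not analysed here, and some items are not reported here.

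The test was that of edgeR 4.0.16 (R 4.3.3, TMM, filterByExpr on Dll1 status, robust quasi-likelihood F test, Benjamini-Hochberg over 18322 genes, threshold 0.05). The first model held Dll1 status and mouse, the second an effect of Dll1 per reporter and mouse, and the third the 4 groups of reporter and Dll1 status, for mCh against GFP mice. The mouse named in the labels pairs the libraries, and deviations from the group means correlated at 0.55 in mCh and -0.05 in GFP mice. Log2 CPM used a prior count of 2, and 0.5 as an alternative. The other alternatives were RLE size factors, the Wald test of DESeq2 1.42.0, dropping the filter or asking for 10 counts in all libraries, a fit without the mouse, a fit of each reporter alone and leaving out a mouse at a time. The first model was also run on simulated counts, which did not cover the other contrasts, and nothing is read from that run here. Counting precision follows from 27301396 to 123907626 counts per library, which bounds counting error alone, as reads are not known to be separate molecules. Whether the libraries of a line came from separate litters is not stated.

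The named genes are the 8 members, Dll1, Epcam, Ptprc and Pecam1, up to 4 genes of each list with the lowest p among those called (others are marked as picked out afterwards), and the 3 genes most correlated with each member. Promoters and motifs came from RefSeq tables (GRCm38.p6). The members and lists were chosen with earlier results of these data known.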

Additional observations from a re-analysis of the deposited data

Results flagged for a closer look

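In Dll1- cells, Btg1 in mouse 3 was far from the other 3 mice, at 274 CPM against 382, 389 and 401 CPM, a gap of 0.857 of the whole range where Dixon's limit for 4 samples is 0.829. In Dll1+ cells mouse 3 was again the lowest, at 398 CPM, with a ratio of 0.71 that stays under the limit. Such a gap is found by chance in about 5% of groups. The Dll1- values, the Dll1+ values and the within-mouse differences of all 8 genes were screened in this way, so a gap in some group can arise by chance.

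Rgs5, a pericyte gene, had a Dll1 effect that differed between the reporters by -3.10 log2 units (edgeR interaction, adjusted p = 0.0233). It was between 7.49 and 12 CPM in the 4 GFP libraries, and went from 250 to 34.5 in mouse 3 and from 294 to 35.6 in mouse 4. Lyz2, a gene of macrophages and neutrophils, differed by -1.25 log2 units (edgeR interaction, adjusted p = 0.0357), with 46.4 and 47.5 CPM in mouse 1, 36.5 and 38.2 in mouse 2, 219.8 and 95.2 in mouse 3 and 240.5 and 105 in mouse 4, Dll1- before Dll1+.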

How the results depend on the processing

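The 8 genes had 48 fitted log2 fold changes, and over 456 alternatives 428 moved by less than the spread between mice, 28 by more, and 0 of those called changed sign. Tob1 kept 0.96 to 0.98 and Tob2 0.54 to 0.60 over the 4 mice under every alternative. Counts of calls (edgeR unless named) varied more. Over the 4 mice 2568 genes were called, 4362 by DESeq2, 1352 with the reporter in place of the mouse block (chosen after seeing the data, with 3 members, Tob1, Tob2 and Btg2), and 0, with 0 members, in the fit with no replicate block. With no filter, 3001 genes were called in the GFP mice (1673 in the reported fit), 3637 in the mCh mice (2154) and 1143 for the difference of the reporters (13), which had 540 by DESeq2 and 44 with at least 10 counts in every library. With no replicate block, 274 genes and 0 members were called in the GFP mice, 212 genes and 1 member (Tob2) in the mCh mice and 0 genes for the difference. With the reporter fitted alone, 0 genes and 0 members were called in the mCh mice. A block by the replicate number of the titles gave 5 members in Dll1- and 3 in Dll1+ cells between the lines. These numbers pair no animals across lines.

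In fits that left out a mouse, the calls ran from 405 to 2401 genes and 2 to 4 members over the 4 mice, from 2 to 2355 genes and 0 to 4 members in the GFP mice, from 905 to 1315 genes with 2 members each time in the mCh mice, and from 0 to 717 genes for the difference. Between the lines they ran from 0 to 7828 genes and 0 to 6 members in Dll1- cells, and from 0 to 6897 genes and 0 to 5 members in Dll1+ cells, where the median over the members was -0.44 to -0.26. A fit that leaves out a mouse has fewer samples, and the lone mouse of a line is assumed to vary like the others. Between the lines, leaving out a mouse turned the sign of Btg3 in Dll1- cells (-0.28 to 0.16) and those of Btg1, Btg3 and Foxo4 in Dll1+ cells (-0.44 to 0.05, -0.11 to 0.60 and -0.36 to 0.0011), none of which was called with all 4 mice. The cause was not tested.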
